A study of Mus musculus with 9 samples.

Results

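Cultures of mouse sclerotome cells were profiled on 9 arrays that carry the replicate numbers 1, 2 and 3 within each of 3 treatments, and the 3 arrays numbered 2 (1 untreated, 1 with BMP4 and 1 with TGF-β1) were compared with the 6 arrays numbered 1 or 3. Members were set by the number in the array's label alone, but number 2 was singled out with earlier results of these data known. The treatment was kept as a factor in the model. Sclerotome, the part of the somite that gives rise to vertebrae and discs, was taken from below the neural tube of wild type embryos at embryonic stage E11.5, after the notochord had been removed. The dissociated cells were plated as dense drops (micromass culture), a format in which mesenchymal cells can form cartilage. The untreated group received no factor, the BMP4 group was given BMP4 at 50 ng/ml and the TGF-β1 group TGF-β1 at 5 ng/ml, each over 8 hours. Serum, ascorbic acid and β-glycerolphosphate were in the medium of all groups, and 50 ng of total RNA per array was amplified before labelling. The study set up the experiment on separate occasions to obtain its replicates, but the labels do not say that arrays of 1 number came from 1 occasion or from the same pool of embryos. The number therefore stands here only for what the arrays were labelled with, and anything else that went with it cannot be told apart from it.

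Mesenchymal cells of the sclerotome can take up a cartilage fate, in which Sox transcription factors switch on type II, IX and XI collagens, aggrecan and the link proteins that hold the matrix together. The same cells can instead spread and build stress fibres. Serum response factor (SRF) with its actin-sensing partners, and YAP with TEAD, then raise smooth muscle and cytoskeletal genes, and TGF-β is known to raise that contractile set. Immediate early genes such as Fos and the Egr family answer serum, growth factors and mechanical stress within minutes, also through SRF, and cells that sense low oxygen raise glycolytic genes through the hypoxia-inducible factors.

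The values are log2 signals centred on each probe set's median over the 9 arrays, so they give differences between arrays and no expression levels, and a value of 0 means only that the array held the median. A difference of 1 on this scale is 2-fold. With treatment as a factor, 1881 of 45037 probe sets (4.18%) differed on the arrays numbered 2 at an adjusted p under 0.05, 1075 of them higher and 806 lower, and 113 differed at least 2-fold. This count fell to 769 without the untreated array numbered 2, to 942 without the BMP4 array numbered 2 and to 783 without the TGF-β1 array numbered 2. Read by gene, with 1 probe set for each of 18193 genes, 664 genes (3.65%) were higher and 506 (2.78%) were lower. At least 2-fold differences were found for 43 genes that were higher and 40 that were lower. For all 83 of them the array numbered 2 lay outside the range of the other 2 arrays, on the same side, in all 3 treatments. These genes were chosen by that difference on the same arrays, so this separation largely follows from the choice and is no further support. Over all genes the array numbered 2 lay above the other 2 in every treatment for 2041 (11.2%) and below them for 1919 (10.5%).

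Treatment held 55.2% of the sum of squares over all probe sets, the arrays numbered 2 against the others held 18.1%, and number 1 against number 3 held 6.7%. The interaction of treatment with number 2 held 9.24%. Treatment and this interaction have more degrees of freedom than the other parts, so the shares are not on equal terms. When the numbers were compared pair by pair, 912 probe sets (2.03%) differed between 2 and 1, 1614 (3.58%) between 2 and 3, and 0 (0%) between 1 and 3. The smallest adjusted p between 1 and 3 by limma was 0.133, while 4141 probe sets had an unadjusted p under 0.05. The comparisons of 2 with 1 and with 3 share the arrays numbered 2. As number 2 was singled out with earlier results known, the comparison of 1 with 3 is no neutral background. Median signals of 8 reference genes were between -0.10 and 0.06 on the arrays numbered 2 and between -0.19 and 0.03 on the other 6, and 0 of the 8 were called.

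The gene lists were chosen with earlier results of these data known, and over all genes 3.65% were higher and 2.78% lower. The programmes went in opposite directions. Of 29 measured cartilage matrix genes, 19 were higher on the arrays numbered 2 and 1 was lower, with a median difference of 0.64 against -0.01 over all genes. Of 29 measured contractile and actin cytoskeleton genes, 21 were lower and 0 were higher, with a median of -0.51. Of 39 early response genes, 19 were lower and 1 was higher, with a median of -0.31. Hypoxia and glycolysis genes (15 higher and 1 lower of 23, median 0.43) and cholesterol synthesis genes (10 higher and 0 lower of 16, median 0.50) were also higher, whereas 1 of 32 cell cycle and DNA replication genes was called, with a median of 0.01.

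**Figure D1:**
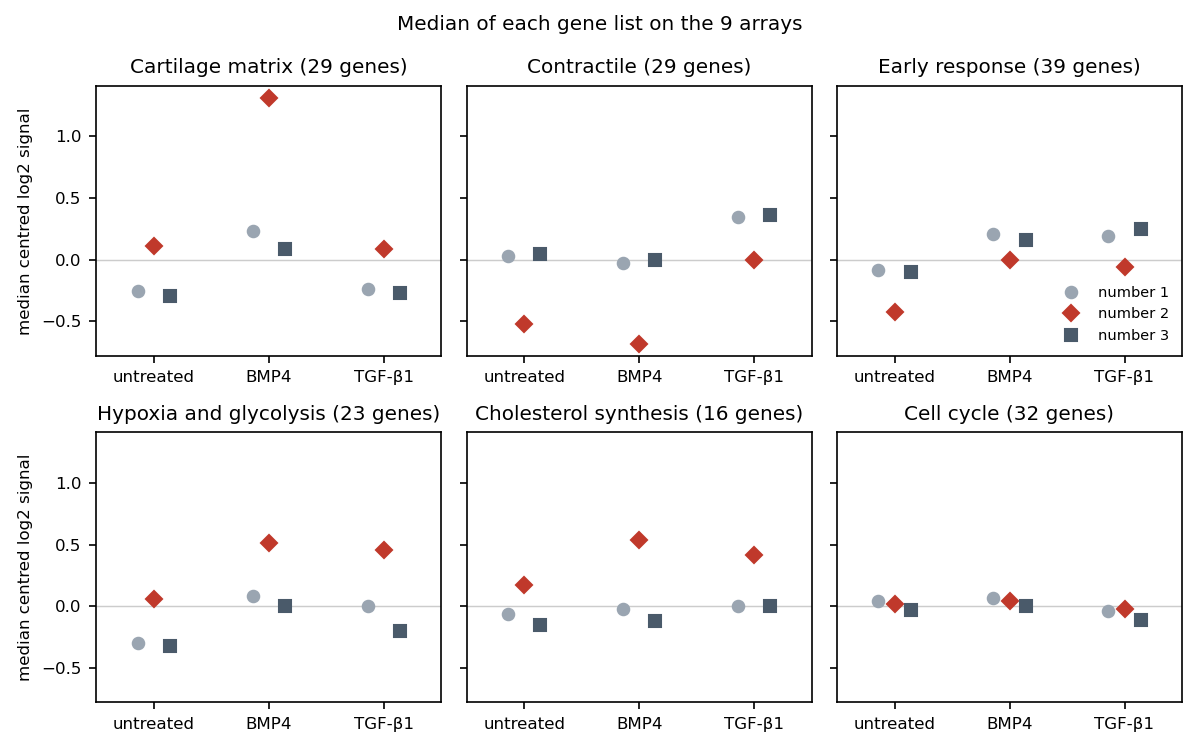
Each panel plots the median centred log2 signal (y axis) of 1 gene list on the 9 arrays, by treatment (x axis), with circles for number 1, diamonds for number 2 and squares for number 3. The diamonds lie above both other arrays in each treatment for the cartilage, hypoxia and cholesterol lists and below them for the contractile and early response lists, while for the cell cycle list all 9 values lie between -0.11 and 0.07.

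Markers of other tissues also moved with the number, and their part in the differences below was not tested. The 14 measured neuron markers had medians of -0.56 to -0.24 on the arrays numbered 2 and of 0.00 to 0.17 on the other 6. Of these markers 6 were lower (42.9%) and 0 higher, against 2.78% lower and 3.65% higher over all genes. Tubb3, a neuronal tubulin, was lower by 2.07-fold (log2 difference -1.05 ± 0.07 SE, adjusted p = 7.0e-05), and Stmn2, a regulator of neuronal microtubules, by 1.76-fold. Of 6 neural crest and glia markers 3 were lower, among them Sox10, the transcription factor of glia and their precursors (-0.57 ± 0.11), and the list had medians of -0.49 to -0.16 against 0.00 to 0.15. The call of Sox10 was lost without the untreated or the TGF-β1 array numbered 2 (adjusted p = 0.119 and 0.124). The other probe sets of Sox10 (-0.16 and -0.14) were not called. Neural tube progenitor markers gave 0 calls of 8 and notochord and epithelium markers 0 of 8.

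Among 13 macrophage markers 3 were higher and 0 lower, with list medians of 0.00 to 0.25 on the arrays numbered 2 and -0.14 to 0.04 on the others. Lyz2, the lysozyme of myeloid cells, was 1.95-fold higher (0.96 ± 0.08). Of 17 skeletal muscle markers 1 was higher (5.88%) and 2 were lower (11.8%), against 3.65% higher and 2.78% lower over all genes. The fetal myosin gene Myh8 was higher (1.18 ± 0.09), whereas Pax3, a gene of muscle precursors and of the neural tube, was lower (-0.50 ± 0.07), as was desmin (Des, -0.38 ± 0.06). The other probe sets of Pax3 (-0.34 and -0.12) and of Des (-0.13) were not called. Of 12 endothelial markers Kdr, a receptor for VEGF, was lower (-0.47 ± 0.09), and 0 of 6 nephric markers were called. The call of Kdr was lost without the BMP4 or the TGF-β1 array numbered 2 (adjusted p = 0.1 and 0.123), and that of Des without any 1 of the arrays numbered 2 (0.056 to 0.06). These are bulk cultures, in which fewer cells of a type and less RNA per cell cannot be told apart.

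The sclerotome label was checked on its own genes. Of 14 sclerotome transcription factor genes 4 were higher (28.6%, against 3.65% of all genes) and 0 lower, with a median difference of 0.10. The list did not move as a set: 8 differences were positive and 6 negative, down to -0.31. Within treatments the median difference was 0.30 without factor, -0.11 with BMP4 and 0.17 with TGF-β1. Pax1, a defining gene of ventral sclerotome, was at 0.36, 1.26 and 0.30 on the untreated arrays 1, 2 and 3, at -0.72, -0.26 and -0.60 with BMP4, and at -0.10, 0.48 and 0.00 with TGF-β1. It was highest on number 2 in each treatment, by 1.54-fold (0.62 ± 0.09, adjusted p = 0.0057). Its paralogue Pax9 differed by 0.46 ± 0.08 in the same direction, and the hedgehog effector gene Gli3 by 0.46 ± 0.09. The second probe set of Pax1 (0.29), the third of Pax9 (0.31) and the others of Gli3 (0.32 and -0.04) were not called. The call of Gli3 was lost without the untreated or the TGF-β1 array numbered 2 (adjusted p = 0.168 and 0.114), and that of Pax9 without any 1 of the 3 arrays numbered 2 (0.109, 0.069 and 0.051 without the untreated, BMP4 and TGF-β1 array).

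The cartilage genes were led by small secreted proteins and matrix components. Cytl1, a secreted protein of cartilage, was at 0.00, 1.99 and -0.14 on the untreated arrays 1, 2 and 3, at -1.49, 0.30 and -1.76 with BMP4, and at 0.10, 2.20 and -0.07 with TGF-β1. Number 2 lay about the same distance above the others in each treatment although BMP4 lowered the gene, and the difference was 4.16-fold (log2 difference 2.06 ± 0.09, adjusted p = 2.4e-06). Cnmd codes for chondromodulin, a cartilage glycoprotein that keeps vessels out. It was at -0.25, 1.70 and -0.27 without factor, at 0.15, 1.88 and 0.00 with BMP4, and at -1.51, 0.68 and -1.44 with TGF-β1, which is 3.93-fold higher on number 2 (1.97 ± 0.08, adjusted p = 1.3e-06). The TGF-β1 array numbered 2 exceeded every array numbered 1 or 3, the BMP4 arrays included.

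Hapln1, the link protein that ties aggrecan to hyaluronan, was at -0.33, 1.54 and -0.57 without factor, at 0.53, 2.40 and 0.00 with BMP4, and at -1.05, 0.07 and -1.48 with TGF-β1. It was 3.53-fold higher on number 2 (1.82 ± 0.17, adjusted p = 0.00043), and all 4 of its probe sets were called higher. Mia, also known as cartilage-derived retinoic acid-sensitive protein, was 3.12-fold higher (1.64 ± 0.08), and the type XI collagen gene Col11a2 2.60-fold higher (1.38 ± 0.08). For Col11a2 the untreated array numbered 2, at 0.39, lay above the BMP4 arrays 1 and 3, at 0.00 and 0.05. The classical cartilage markers moved less. Acan, the aggrecan core protein, differed by 0.58 ± 0.07 and Col2a1, the main collagen of cartilage, by 0.48 ± 0.06, both higher on number 2 in all 3 treatments.

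**Figure D2:**
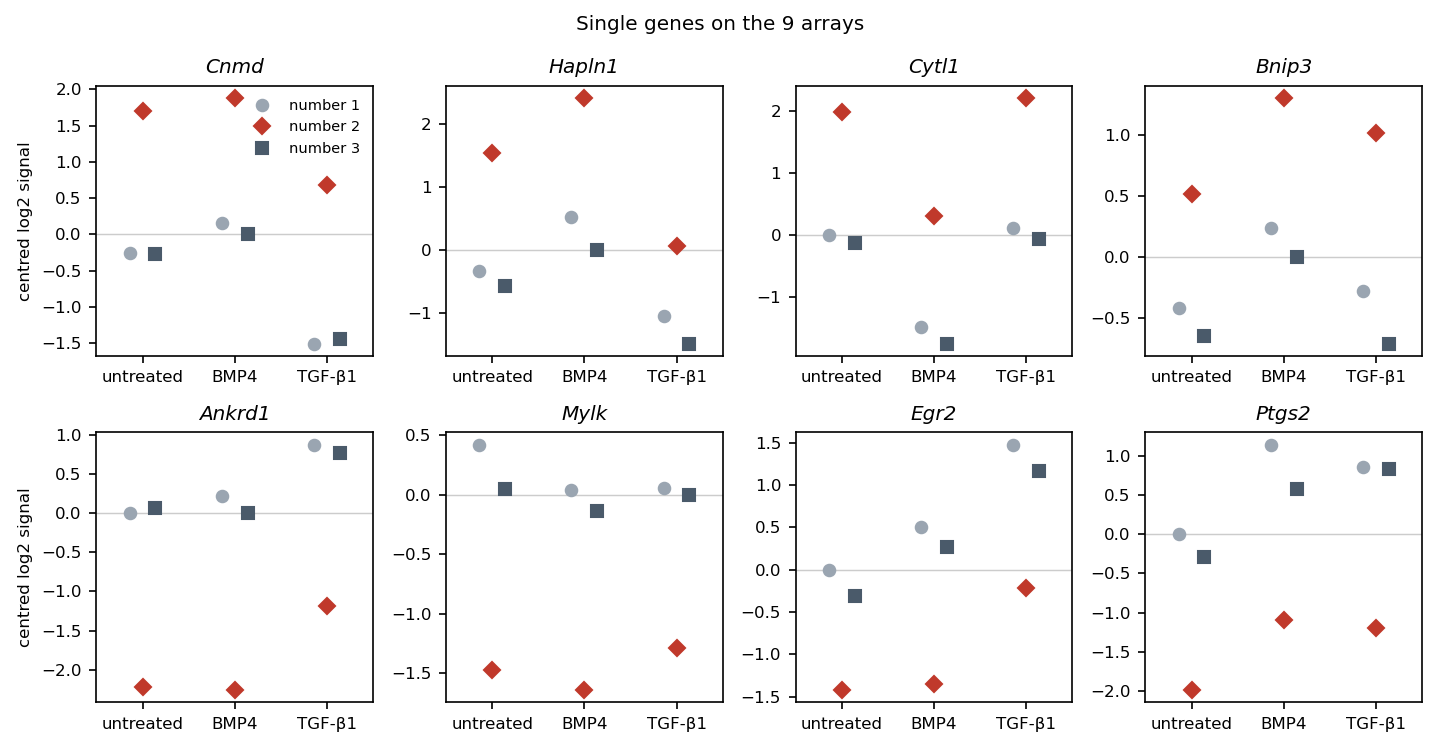
Centred log2 signal (y axis) of 8 genes on the 9 arrays by treatment (x axis), with circles for number 1, diamonds for number 2 and squares for number 3. In the upper row (Cnmd, Hapln1, Cytl1, Bnip3) the diamond is the highest array of its treatment and in the lower row (Ankrd1, Mylk, Egr2, Ptgs2) the lowest, in all 3 treatments.

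The number 2 array lay above the other 2 in every treatment for 21 of the 29 cartilage matrix genes, against 11.2% of all genes. The transcription factors above them moved less, with 2 of 11 higher and a median of 0.16. Sox9, which directs cartilage formation, was at -0.33, 0.00 and -0.35 without factor, at 1.18, 2.13 and 1.26 with BMP4, and at -0.20, 0.01 and -0.42 with TGF-β1. Its number 2 array was the highest of each treatment, most clearly with BMP4, and the difference was 0.52 ± 0.11 (adjusted p = 0.028), with 1 of its 3 probe sets called. Its partner Sox6 differed by 0.55 ± 0.13. Both calls were lost without the BMP4 array numbered 2 (adjusted p = 0.117 for Sox9 and 0.177 for Sox6) and in several other omissions of 1 array. The count of 19 matrix genes ran from 14 to 19 when single arrays were left out.

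Tendon and fibrous matrix genes did not follow as a set: of 26 measured 5 were higher and 2 lower, with a median of 0.04. Aspn, asporin, a small leucine-rich proteoglycan that binds TGF-β, was 2.93-fold higher (1.55 ± 0.11, adjusted p = 9.0e-05), and osteoglycin (Ogn) differed by 0.68 ± 0.10. Tnc, tenascin C, was lower (-0.78 ± 0.13), as was Tnmd, tenomodulin (-0.76 ± 0.09), which is the closest relative of Cnmd. In the list of hedgehog, hypertrophy and bone genes 2 of 10 were higher, among them Hhip, a hedgehog target that binds the ligand (1.04 ± 0.22). The calls of Tnc and Hhip were lost without the untreated array numbered 2 (adjusted p = 0.089 and 0.093), that of Tnc also without the TGF-β1 array numbered 2 (0.07) and that of Hhip without the BMP4 array numbered 2 (0.102).

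Contractile genes lay lower on the arrays numbered 2 in every treatment, with list medians of -0.52 (untreated), -0.68 (BMP4) and 0.00 (TGF-β1) against 0.03 and 0.05, -0.03 and 0.00, and 0.35 and 0.36 on the other arrays of the same treatments. The TGF-β1 array numbered 2 thus sat at the level of the untreated arrays 1 and 3. Mylk, myosin light chain kinase, was at 0.42, -1.47 and 0.05 without factor, at 0.04, -1.64 and -0.14 with BMP4, and at 0.05, -1.28 and 0.00 with TGF-β1. It was 2.90-fold lower on number 2 (-1.54 ± 0.10, adjusted p = 7.0e-05) and each of its 3 probe sets passed.

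Actg2, smooth muscle γ-actin, was at -0.05, -1.48 and 0.00, at 0.04, -1.31 and 0.16, and at 0.44, -0.58 and 0.54 on arrays 1, 2 and 3 of the untreated, BMP4 and TGF-β1 groups, 2.48-fold lower (-1.31 ± 0.08). Tagln, the actin-binding protein transgelin, was 2.37-fold lower (-1.25 ± 0.12), Cnn1, calponin, 2.34-fold lower (-1.23 ± 0.13) and the smooth muscle myosin Myh11 2.12-fold lower (-1.08 ± 0.18). The second probe set of Myh11 differed by -0.08 and was not called. For 23 of the 29 genes the number 2 array lay below the other 2 in all treatments, against 10.5% of all genes. Among the 8 that were not called were the genes for the SRF partners Mrtfa (-0.06), Mrtfb (0.11) and Myocd (0.07), named here after their values were seen. The count of 21 ran from 14 to 21 when single arrays were left out, and the call of Myh11 was lost without the untreated or the TGF-β1 array numbered 2 (adjusted p = 0.087 and 0.084).

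Of 22 YAP and TEAD signature genes 4 were lower (18.2%, against 2.78% of all genes) and 1 was higher (4.55%, against 3.65%). The list's median was -0.06, and 16 of the 22 differences were negative. Ankrd1, an ankyrin repeat protein that binds titin and a known YAP target, had the largest difference of the list. It was at 0.00, -2.22 and 0.06 without factor, at 0.22, -2.26 and 0.00 with BMP4, and at 0.87, -1.18 and 0.77 with TGF-β1, 4.62-fold lower on number 2 (-2.21 ± 0.08, adjusted p = 1.3e-06) with both probe sets called. Ccn1, a matricellular early gene, was 1.97-fold lower (-0.98 ± 0.11). Nt5e, the ecto-5'-nucleotidase, was 1.86-fold higher (0.89 ± 0.15), a call lost without the untreated or the TGF-β1 array numbered 2 (adjusted p = 0.093 and 0.089). The other probe sets of Nt5e differed by 0.05 and -0.02 and were not called.

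Of the early response genes, Ptgs2, Egr3, Egr2, Fos and Ier3 were lower by the largest amounts. Ptgs2, the inducible cyclooxygenase, was at 0.00, -1.99 and -0.29 without factor, at 1.14, -1.09 and 0.58 with BMP4, and at 0.86, -1.20 and 0.83 with TGF-β1. Both factors raised it in each of the 3 numbers, yet the treated arrays numbered 2 stayed below the untreated arrays 1 and 3, and it was 3.85-fold lower on number 2 (-1.95 ± 0.12, adjusted p = 4.5e-05). Egr3 was 3.48-fold lower (-1.80 ± 0.15), with 1 of its 2 probe sets called. Egr2, a zinc finger transcription factor like Egr3, was at 0.00, -1.42 and -0.31 without factor, at 0.50, -1.35 and 0.27 with BMP4, and at 1.48, -0.21 and 1.17 with TGF-β1 (-1.51 ± 0.11). Its lowest array in every treatment was number 2.

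Fos, a component of the AP-1 factor, was 2.30-fold lower (-1.20 ± 0.06, adjusted p = 1.0e-05), with -1.29, -0.89 and -0.97 on the untreated, BMP4 and TGF-β1 arrays numbered 2 and -0.06 to 0.35 on the other 6. Ier3, an early gene that protects cells from death, was 1.96-fold lower (-0.97 ± 0.07). Not all early genes took part: 19 of 39 were not called, among them Jun (0.08), Fosb (0.06), Myc (0.03), Atf3 (-0.28) and Nr4a2 (0.01), named after their values were seen, and Ier5 was higher (0.41 ± 0.08). In the list of cytokine and NF-kB response genes 4 of 20 were lower and 0 higher, led by the chemokine gene Ccl2 (-1.03 ± 0.15) and by Csf1, the macrophage growth factor gene (-0.76 ± 0.07). The count of 19 lower early genes ran from 13 to 19 when single arrays were left out.

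SRF binds the CArG box, which was searched for on both strands in the 250 bases before each start site of the RefSeq promoter table (build GRCm38.p6). It was found in 1.47% of all 32851 promoters and for 1.62% of the genes with a promoter in the table. Among the 25 contractile genes with a promoter there, 7 had one (28.0%), with 5 of the 18 called lower and 2 of the 7 not called. Of 30 early response genes 3 had one (10.0%), all 3 among the 14 called lower. It was found for 0 of 23 cartilage matrix genes and 0 of 22 hypoxia and glycolysis genes. A match is only these letters in this window. The following stretches, with the CArG boxes in capitals, show it in SRF's own gene, in a myosin light chain gene (Myl9), in the filamin A interacting protein gene Filip1l, in Egr2 and in the phosphatase gene Dusp5, all lower on number 2 (by -0.46, -0.77, -0.93, -1.51 and -0.61 on the log2 scale).
Srf, chr17:46556180-46556279, minus strand: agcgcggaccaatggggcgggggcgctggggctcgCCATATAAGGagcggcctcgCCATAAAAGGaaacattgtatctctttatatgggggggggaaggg
Myl9, chr2:156775268-156775347, plus strand: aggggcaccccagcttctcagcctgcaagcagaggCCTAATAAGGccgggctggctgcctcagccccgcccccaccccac
Filip1l, chr16:57549145-57549224, plus strand: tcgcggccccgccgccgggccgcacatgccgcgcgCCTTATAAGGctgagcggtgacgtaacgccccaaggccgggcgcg
Egr2, chr10:67537459-67537538, plus strand: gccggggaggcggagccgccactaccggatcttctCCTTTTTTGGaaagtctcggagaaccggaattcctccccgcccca
Dusp5, chr19:53529028-53529117, plus strand: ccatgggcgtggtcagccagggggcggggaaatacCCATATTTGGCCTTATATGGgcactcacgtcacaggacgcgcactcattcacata

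**Figure D3:**
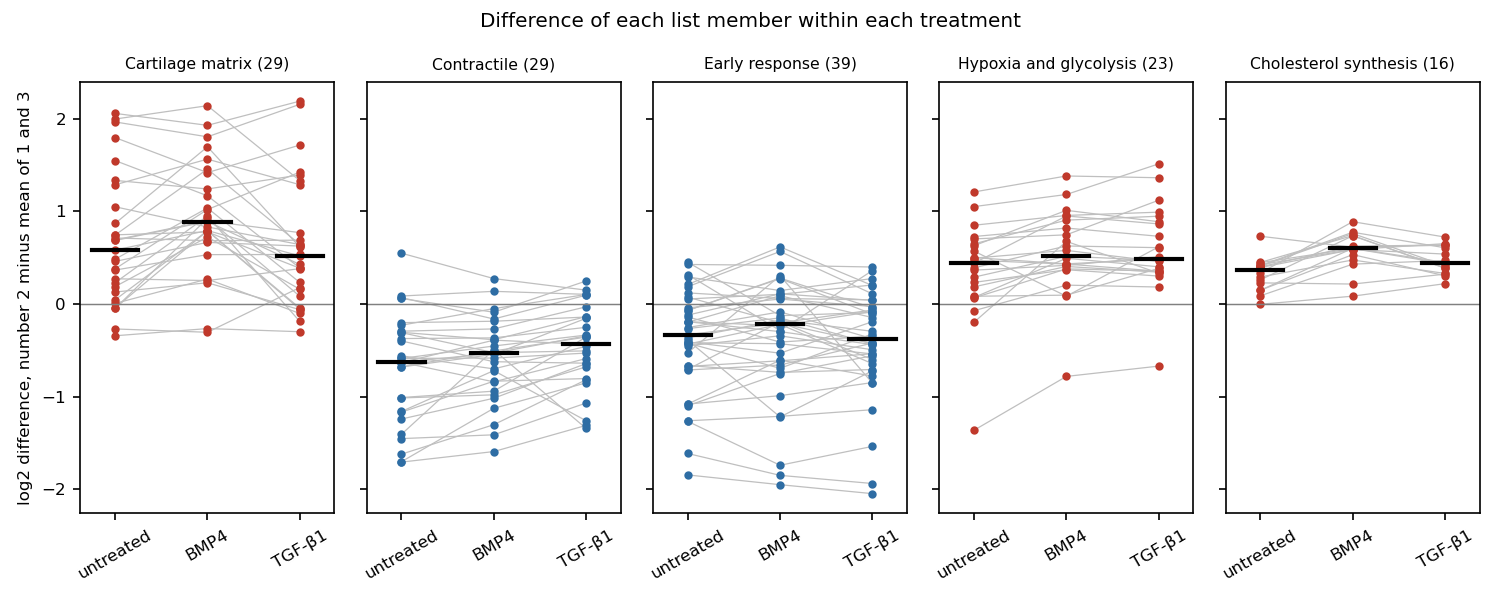
Log2 difference of the array numbered 2 from the mean of the arrays numbered 1 and 3 (y axis) for every measured member of 5 gene lists, computed within each treatment (x axis). Each point is 1 gene, grey lines join the same gene and black bars mark the medians, which run from 0.52 to 0.89 for cartilage matrix, from -0.63 to -0.43 for contractile and from -0.37 to -0.22 for early response genes.

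Genes of the hypoxia response and of glycolysis were higher on the arrays numbered 2. For 18 of 23 the number 2 array was the highest of each treatment, against 11.2% of all genes. Pdk1, a pyruvate dehydrogenase kinase gene, was at -0.30, 0.74 and -0.65 without factor, at 0.15, 1.46 and 0.00 with BMP4, and at -0.14, 1.03 and -0.53 with TGF-β1. It was 2.49-fold higher on number 2 (1.32 ± 0.11, adjusted p = 0.0002) and each of 4 probe sets passed. Bnip3, a hypoxia-induced mitophagy gene, was 2.37-fold higher (1.25 ± 0.12), the glycolytic enzyme gene Tpi1 1.91-fold higher (0.93 ± 0.09) and Ankrd37, a hypoxia-inducible gene, 1.81-fold higher (0.86 ± 0.13). Outside the list, the lactate exporter gene Slc16a3 (1.43 ± 0.11) and the aldolase gene Aldoc (1.39 ± 0.18) were among the 12 largest rises. The second probe set of Aldoc differed by -0.07 and was not called.

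Adm, adrenomedullin, went the other way. It was at 0.45, -0.85 and 0.58 without factor, at -0.43, -1.26 and -0.51 with BMP4, and at 0.71, 0.00 and 0.64 with TGF-β1, 1.92-fold lower (-0.94 ± 0.11) with both probe sets called. Of the 7 members that were not called, Vegfa differed by 0.32, Car9 by 0.19 and Egln3 by 0.10 (named after their values were seen). The count of 15 dropped to 9 without the TGF-β1 array numbered 2, where the call of Ankrd37 was lost (adjusted p = 0.062).

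The core letters ACGTG of the hypoxia response element, or CACGT on the other strand, were found before 16.6% of all promoters and for 18.5% of all genes in the table. They were found for 17 of 22 hypoxia and glycolysis genes (77.3%), 11 of the 15 called higher and all 6 not called. Of 30 early response genes 13 had them (43.3%), 7 of the 14 called lower and 6 of the 15 not called. They were also found for 6 of 23 cartilage matrix genes (26.1%) and 5 of 25 contractile genes (20.0%). Of 12 cholesterol synthesis genes 3 had them, all 3 among the 7 called higher. The letters were thus not particular to genes called higher. In 3 of the genes called higher, the mitophagy gene Bnip3, the glucose transporter gene Slc2a1 and the glycolytic enzyme gene Pgk1 (by 1.25, 0.75 and 0.43), the stretches read as follows, with the matches in capitals. The capitals of Bnip3 hold overlapping matches on both strands.
Bnip3, chr7:138909574-138909649, minus strand: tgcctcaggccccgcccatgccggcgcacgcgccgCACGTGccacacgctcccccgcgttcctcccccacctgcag
Slc2a1, chr4:119108674-119108744, plus strand: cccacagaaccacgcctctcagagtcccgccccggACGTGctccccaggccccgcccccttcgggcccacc
Pgk1, chrX:106186915-106187008, plus strand: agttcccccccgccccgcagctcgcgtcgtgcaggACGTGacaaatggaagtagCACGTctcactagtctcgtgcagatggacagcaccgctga

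Cholesterol synthesis genes differed by smaller and more even amounts, from 0.10 to 0.66, and all 16 members had a positive difference. Stard4, a carrier of sterols, differed by 0.66 ± 0.09 (1.58-fold), Lss, lanosterol synthase, by 0.65 ± 0.11, Cyp51, lanosterol demethylase, by 0.60 ± 0.10, Mvd of the mevalonate pathway by 0.55 ± 0.08 and Dhcr7, which makes the last step to cholesterol, by 0.54 ± 0.07. The medians on the arrays numbered 2 were 0.17, 0.54 and 0.42 in the untreated, BMP4 and TGF-β1 groups against -0.15 to 0.00 elsewhere. The count of 10 dropped to 4 without the BMP4 array numbered 2 and to 5 without the TGF-β1 array numbered 2, and Lss and Cyp51 were not called in either case. Of 13 heat shock genes 2 were higher and 1 lower: Hspa1b (1.18 ± 0.10) and Hspa1a (0.99 ± 0.10), near-identical copies of the inducible HSP70 gene whose probe sets may read both, and Hspb1 (-0.25 ± 0.06), whose call was lost on leaving out any 1 of the 9 arrays (adjusted p = 0.071 to 0.212). Of 19 genes of ER stress and of ATF4 targets 1 was higher and 0 lower.

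**Figure D4:**
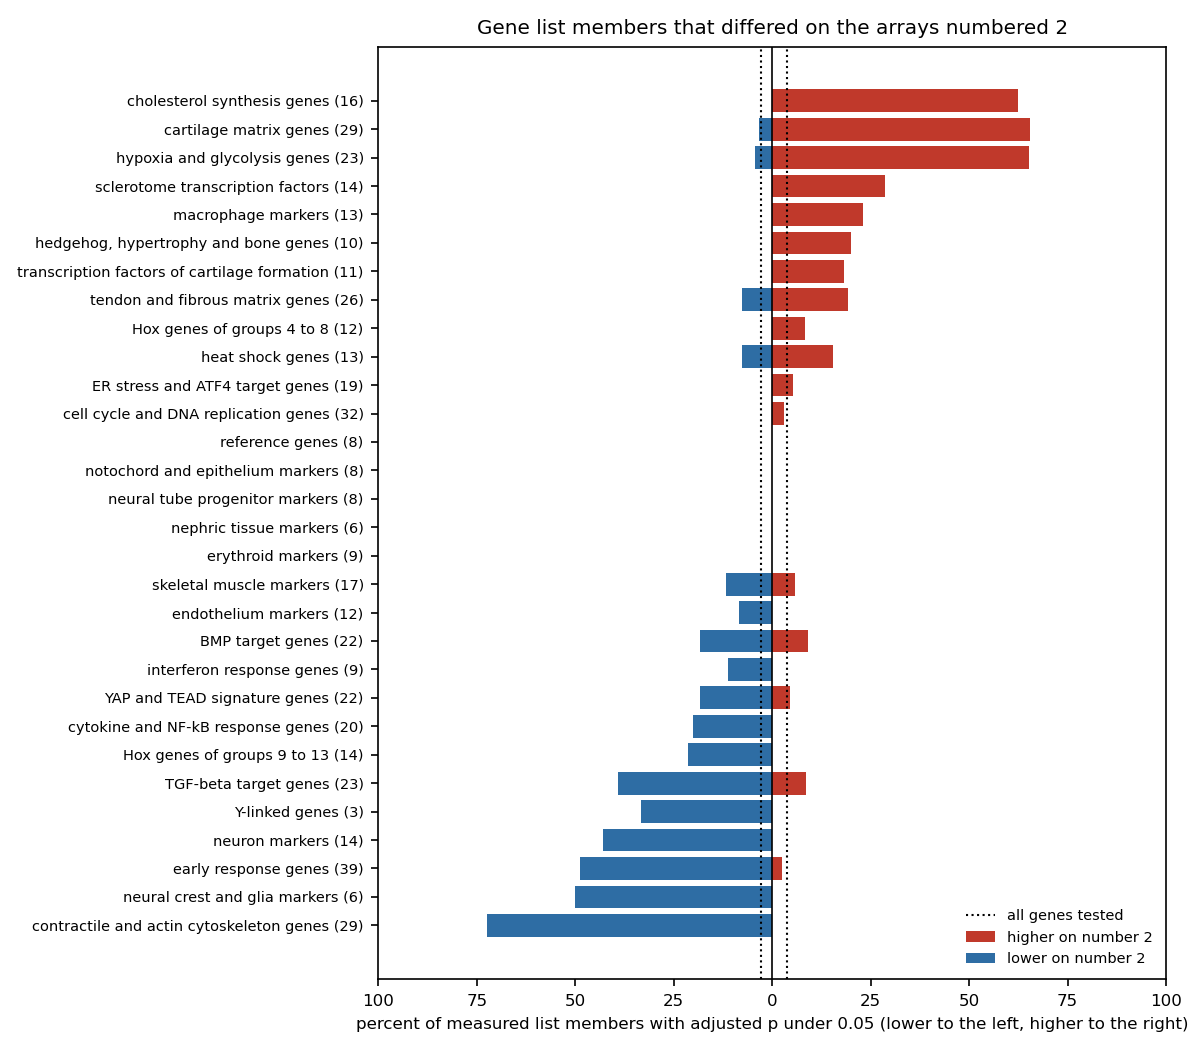
Percent of the measured members of each gene list of more than 1 gene (bars, with the number measured in brackets, and Xist left out) that were called higher on the arrays numbered 2 (red, to the right) or lower (blue, to the left) at an adjusted p under 0.05. The dotted lines mark all genes tested, 3.65% higher and 2.78% lower, and the longest bars are those of contractile genes on the left and of cartilage matrix, hypoxia and cholesterol genes on the right.

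Position along the body axis and sex chromosomes were read from their own lists. Of 14 Hox genes of groups 9 to 13, which are used in more posterior segments, 3 were lower and 0 higher, and all 14 differences were negative, from -0.41 for Hoxd10 to -0.03, with a median of -0.22. The call of Hoxd10 was lost in 8 of 9 omissions of 1 array (adjusted p up to 0.184). Of 12 Hox genes of groups 4 to 8, 1 was higher and 0 lower, with a median of 0.04. Xist, the RNA that silences an X chromosome in female cells, was at 0.00, 0.76 and -0.21 without factor, at -0.38, 0.78 and -0.10 with BMP4, and at -0.47, 0.94 and 0.05 with TGF-β1, 2.02-fold higher on number 2 (1.01 ± 0.12, adjusted p = 0.0016) and each of 3 probe sets passed. Of 3 Y-linked genes Eif2s3y was lower (-0.53 ± 0.09) and the list's median was -0.44, a call lost without any 1 of the arrays numbered 2 (adjusted p = 0.051 to 0.073). The number of embryos and their sex in each culture were not given in the sources used here, and the part of either in the differences was not tested.

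Of the 83 genes that differed at least 2-fold, 55 belonged to no list. The largest rise was in Micalcl, read by 1 probe set, at -0.29, 3.36 and 0.00 without factor, at -0.13, 2.95 and -0.17 with BMP4, and at -0.09, 3.94 and 0.09 with TGF-β1, 11.4-fold (3.51 ± 0.14). The largest fall was in AI506816, an unnamed locus also read by 1 probe set, 8.50-fold (-3.09 ± 0.08), with -3.10, -2.92 and -2.77 on the arrays numbered 2 and -0.07 to 0.47 on the other 6. Both genes split the numbers more widely than any gene of the cartilage or contractile lists. Ecrg4, the gene of the secreted peptide augurin, was 4.0-fold higher (2.00 ± 0.09) and each of 3 probe sets passed, and Nfia, a nuclear factor I gene, 3.40-fold higher (1.76 ± 0.10) with all 6.

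The lower side held the annexin genes Anxa1 (4.26-fold, -2.09 ± 0.07) and Anxa3 (2.61-fold, -1.39 ± 0.10), the desmosome gene Pkp2 (3.34-fold, -1.74 ± 0.09) and Igfbp7, an insulin-like growth factor binding protein gene (2.71-fold, -1.44 ± 0.11). It also held Dmp1, a matrix protein gene of mineralised tissue (2.61-fold, -1.39 ± 0.10), and Rbm45, an RNA-binding protein gene (2.93-fold, -1.55 ± 0.11). Not every probe set of a gene followed. Of the 83 genes 51 have several probe sets, of which 20 had all of them called in the gene's direction, 12 some and 19 only 1, and 0 had any called the other way. Pnpt1, which codes for a mitochondrial RNA-degrading enzyme, rose by 1.71 ± 0.15 on 1 probe set while the others differed by -0.09 and -0.08, and the second probe set of Anxa1 differed by 0.00.

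Whether the treatments acted differently on the arrays numbered 2 was asked with interaction terms. By limma, 0 of 45037 probe sets (0%) passed for both treatments together, with a smallest adjusted p of 0.198, and 0 passed for BMP4 or for TGF-β1 alone, while 1584, 1788 and 1718 had an unadjusted p under 0.05. By gene the unadjusted p of the joint test was under 0.05 for 864 of 18193 (4.75%). Each treatment has 1 array numbered 2, so the intervals were wide. The 95% interval of such a difference reached 0.468 to either side in the median, against 0.182 for the difference between numbers. These intervals are for 1 probe set at a time, before adjustment, and a call after adjustment needed more. The BMP4 interaction of the homeobox gene Dlx2, 1.19 ± 0.17, was not called, so large differences of treatment effects could be missed. The missing calls do not show that the treatments acted alike.

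BMP4 effects kept their direction in the arrays numbered 2. BMP4 called 1005 genes higher (5.52%) and 1312 lower (7.21%) with the number 2 term in the model. Of 22 BMP target genes 21 were higher with BMP4, and the median effect was 1.13, 1.44 and 1.25 in numbers 1, 2 and 3. Nog, the BMP antagonist noggin, had effects of 3.25, 3.95 and 2.89. The starting points differed: the untreated array numbered 2 was the lowest untreated array for Dlx2, at -1.58 against -0.06 and -0.10, and for Msx2, at -1.03 against -0.23 and 0.00, both homeobox genes that BMP signals raise. On the arrays numbered 2, 4 BMP targets were lower and 2 higher, with a list median of -0.21, and the call of Dlx2 was lost without the untreated or the TGF-β1 array numbered 2 (adjusted p = 0.073 and 0.094).

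The cartilage genes carried both differences at once. BMP4 raised 21 of the 29 matrix genes and lowered 1, with median effects of 0.75, 0.86 and 0.58 in numbers 1, 2 and 3, and the BMP4 array numbered 2 had the highest list median of all 9 arrays, 1.31 against 0.23 and 0.09. In the joint test 10 of the 29 had an unadjusted p under 0.05, against 4.75% of all genes, and 0 passed adjustment, with a smallest adjusted p of 0.842. This was not particular to cartilage genes. Such p values were found for 9 of 22 BMP targets, 5 of 10 hedgehog, hypertrophy and bone genes and 5 of 9 erythroid markers. They were found for 0 of 32 cell cycle and 0 of 16 cholesterol synthesis genes. Sox9 rose with BMP4 by 1.51, 2.13 and 1.61 in numbers 1, 2 and 3, which is an interaction of 0.57 ± 0.19 (unadjusted p = 0.018, not passing). Its probe sets disagree: on the third one the BMP4 arrays were at 0.55, 0.00 and 0.46 and the untreated arrays at -0.07, 0.00 and -0.04, so that the BMP4 difference was smallest in number 2. Acan rose by 1.71, 2.03 and 1.94. Cnmd, in contrast, differed with BMP4 by only 0.40, 0.18 and 0.27.

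TGF-β1 called 875 genes higher (4.81%) and 1438 lower (7.9%). It raised 17 of 29 contractile genes and lowered 2, and the median effect was 0.30, 0.53 and 0.31 in numbers 1, 2 and 3. Cnn1 rose by 1.04, 1.94 and 1.13, an interaction of 0.85 ± 0.19 (unadjusted p = 0.0027, not passing) from a starting point on the untreated arrays of -0.17, -1.94 and -0.30. Ankrd1 rose by 0.87, 1.04 and 0.71, and Mylk differed by -0.36, 0.19 and -0.05. The tendon genes Fmod (2.22, 2.98 and 2.38) and Scx (1.89, 2.06 and 2.08) rose in every number, and Chad, chondroadherin, rose by 2.20, 3.34 and 2.38. Of 23 TGF-β target genes 14 were higher with TGF-β1, and 9 were lower and 2 higher on the arrays numbered 2.

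To compare the size of responses without choosing genes on the arrays in question, genes called at least 2-fold with a factor in 2 of the numbers were read in the remaining number. For BMP4, 254 genes called on numbers 1 and 3 all kept their direction on number 2, with a median size of 1.68 on number 2 against 1.32 where they were chosen, a median ratio of 1.21. When number 1 was read instead the ratio was 0.85 over 144 genes, and for number 3 it was 0.81 over 253. For TGF-β1 the ratio was 1.11 over 169 genes on number 2, 0.87 over 55 genes on number 1 and 0.87 over 98 genes on number 3. The genes differ between these readings, and those read on number 1 or 3 were chosen and sized on pairs that include number 2. The ratios for numbers 1 and 3 are therefore no independent baseline for that of number 2. The ratios were not tested against each other.

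Of the 169 TGF-β1 genes 163 kept their direction on number 2, and the exceptions are named here after their values were seen. Hbb-bh1, Hba-x and Hbb-y, embryonic globin genes, and Alas2, which starts haem synthesis in red cells, fell with TGF-β1 in numbers 1 and 3, by -2.07, -1.72, -1.27 and -1.04, and differed by 0.29, 0.25, 0.21 and 0.26 in number 2. Hbb-bh1 was at 1.67, -0.18 and 1.70 on the untreated arrays, so the untreated array numbered 2 already lay near the treated ones. The 9 erythroid markers had medians of 0.84 and 0.91 on the untreated arrays 1 and 3 and of -0.47 to 0.08 on the other 7, and 0 were called between the numbers. The others were Car2, carbonic anhydrase 2 (-1.12 in numbers 1 and 3 and 0.29 in number 2), and Mmp9, a gelatinase (1.09 and -0.50).

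**Figure D5:**
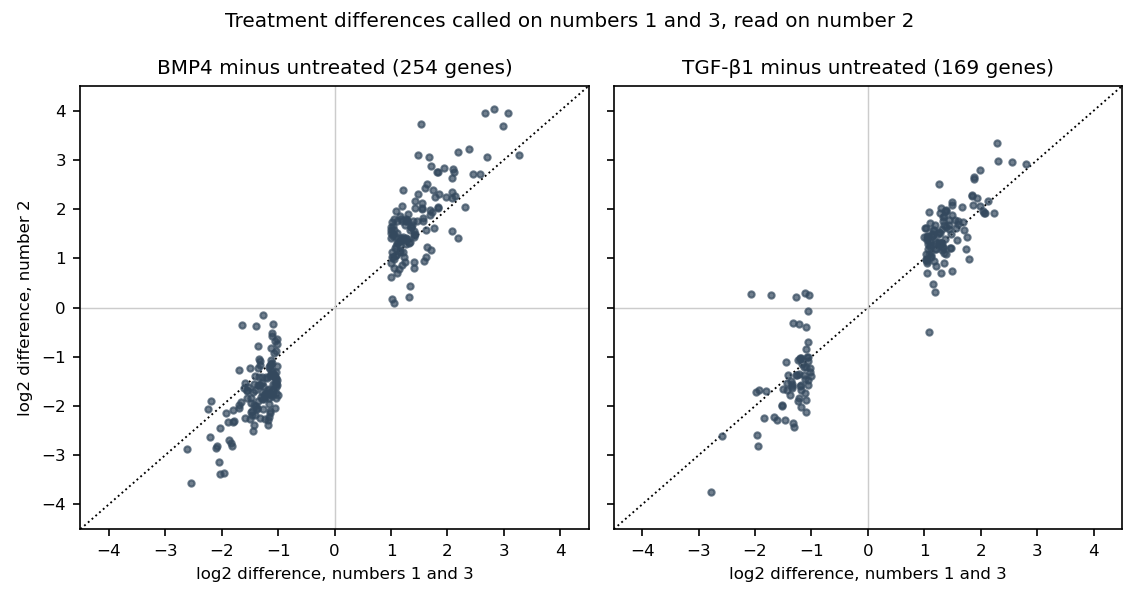
For genes called at least 2-fold with BMP4 (left, 254 genes) or TGF-β1 (right, 169 genes) on the arrays numbered 1 and 3, the log2 difference from untreated on those arrays (x axis) is set against that on the arrays numbered 2 (y axis), with equal differences on the dotted line. All BMP4 genes and 163 of the TGF-β1 genes keep their direction, and 6 TGF-β1 genes lie on the opposite side of zero.

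The genes with the smallest interaction p values are given as leads without a call. BC006965, an uncharacterised transcript, differed with BMP4 by 1.42, 3.72 and 1.64 in numbers 1, 2 and 3 (interaction 2.19 ± 0.17, adjusted p = 0.184). Of its 3 probe sets another had its highest BMP4 array in number 2, whereas the third went the other way, with BMP4 arrays at 1.35, 0.00 and 1.12 and untreated arrays at -0.06, -0.09 and 0.00. Scin, the actin-severing protein scinderin, differed by 1.62, 3.09 and 1.33 (1.62 ± 0.19, adjusted p = 0.594). Rarb, a retinoic acid receptor gene, was at 0.34, 1.48 and 0.37 on the untreated arrays and at -0.31 to 0.00 on the 6 treated arrays, so that its difference from untreated was larger in number 2 with either factor (-1.11 ± 0.15 for each). Nefl, a neurofilament gene, and Igfbp5, an insulin-like growth factor binding protein gene, also had more negative BMP4 differences in number 2 (-1.42 ± 0.17 and -1.09 ± 0.16). For TGF-β1 the smallest p values were those of Cxcl15, a chemokine gene (-1.97 ± 0.24, from 1 of its 2 probe sets), Mmp9 (-1.59 ± 0.20), Car2 (1.41 ± 0.19), Rarb and the protease gene Prss23 (-1.22 ± 0.17). The other probe set of Cxcl15 had all 9 arrays between -0.18 and 0.27. None of these interactions passed adjustment.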

How the data were processed

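The deposited values are log2 signals from Affymetrix mouse arrays, made by the authors with RMA per the labels (version not given in the sources used here) and centred on each probe set's median over the 9 arrays, which removes levels and leaves no filter on dim probe sets. There are 45101 probe sets, of which 64 controls were set aside. GEO's platform annotation gave 1 symbol for 34945, several for 932 and none for 9160. A gene was read from its probe set of largest variance. With limma (3.58.1, R 4.3.3), treatment and an indicator of number 2 were fitted to all 9 arrays, with cell means for the interaction, and p-values were adjusted by Benjamini-Hochberg over 45037 probe sets at 0.05. Errors are standard errors. Precision is limited by the number of arrays, and p-values measure the spread between arrays whose independence the labels do not state.

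The arrays, the contrast and the 31 gene lists were chosen with earlier results of these data known. Named genes were the 12 largest rises and falls, up to 5 called members per list, the 4 markers Cnmd, Hapln1, Ankrd1 and Mylk, and up to 5 per interaction term. Treatment effects could be given for these and for Nog, Sox9, Acan, Fmod, Scx, Maf, Chad, Cnn1 and Col2a1, and are printed for some of them. Others were named after their values were seen. The fits were tested on simulated data. The alternatives were the replicate block, array centring, quantile normalization, array weights, a robust prior, a variance filter, the mean of a gene's probe sets and leaving out each array.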

Additional observations from a re-analysis of the deposited data

How the results depend on the processing

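The 1881 probe sets became 1861 with the replicate number as a block, 1881 with array centring, 1468 with quantile normalization, 1839 with a robust prior, 2665 with array weights and 1984 of 22519 among the more variable ones. Leaving out 1 array gave 769 to 1795, the lowest without the untreated, BMP4 and TGF-β1 arrays numbered 2 (769, 942 and 783). Under the same omissions the list counts ran from 14 to 19 (cartilage matrix), 14 to 21 (contractile), 13 to 19 (early response), 9 to 15 (hypoxia and glycolysis) and 4 to 12 (cholesterol synthesis). Of 113 named genes 103 were called, of which 61 kept their call under every alternative run and 42 lost it under at least 1, and 0 reversed. Interactions and number 1 against 3 gave 0 calls by limma wherever they could be fitted. Without an array numbered 2 that treatment's interaction could not be fitted, and without the untreated one neither could. The cause of the changes was not tested.

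The labels do not say that a number pairs the arrays. Deviations from the treatment means correlated at 0.49 to 0.50 between arrays numbered 2, at -0.05 to 0.29 between those numbered 1 and at 0.24 to 0.38 between those numbered 3. Between arrays numbered 1 and 3 the correlations were -0.04 to 0.36. Of 9 arrays 8 correlated best with one of their own number, which is a hint from the data and not the design. Deviations cancel within a treatment, so distinct arrays numbered 2 also draw the others together, and the hint says little on a pairing within numbers 1 or 3. The replicate block gave 1861 probe sets, 1067 higher and 794 lower.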

Other observations

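Of the 64 control probe sets 3 were called on the arrays numbered 2, all for the transferrin receptor, at its 3′ end (0.94 ± 0.15), middle (0.68) and 5′ end (0.67). The 5′ minus 3′ signal differed by 0.00 for β-actin, 0.05 for Gapdh, 0.06 for pyruvate carboxylase and -0.27 for the transferrin receptor between the arrays numbered 2 and the others. Of 9 interferon response genes 1 was lower and 0 were higher. Of 23 TGF-β target genes, 9 were lower on the arrays numbered 2, led by the cell cycle inhibitor gene Cdkn2b (-0.99), and the collagen cross-linking gene Lox was higher (0.63), a call lost without the untreated or the TGF-β1 array numbered 2.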
